A study of Mus musculus with 5 samples.

Results

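The apelin and renin-angiotensin genes measured here were 6 genes of 19938 with a probe set of their own: Apln, Aplnr, Agt, Agtr1a, Agtr2 and Ace. They were chosen by name, as the probe sets whose single gene symbol in the platform annotation was one of these, and each gene had 1 probe set. Gene expression was measured in 5 transplanted mouse hearts, each on 1 array of the type Affymetrix Mouse Gene 1.0 ST, and signals are given on the log2 scale as the authors computed them with RMA, a method that merges the probes of a gene into 1 background-corrected, normalized value. Donor hearts and recipients were C57BL/6 mice, bought at 8 weeks of age, and every heart was implanted heterotopically into the abdomen. Grafts 2553, 2555 and 2557 were kept for 18 h at 4 degrees C in University of Wisconsin solution before implantation (I/R, n = 3). Grafts 2554 and 2556 were implanted at once (non-I/R, n = 2). Both groups therefore share surgery, implantation and reperfusion, and no heart without transplantation was compared. The labels give harvest at 24 h after implantation, while the text on the arrays gives day 2.

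Apelin, the product of Apln, is a secreted peptide that is made largely by endothelial cells, is induced by low oxygen and acts through the G protein-coupled receptor APJ, the product of Aplnr. In the heart apelin supports contraction and relaxes vessels. Angiotensinogen (Agt) is the precursor from which renin releases angiotensin I, and the angiotensin converting enzyme (Ace), which sits on endothelial cells, turns this into angiotensin II. Angiotensin II constricts vessels and promotes growth and fibrosis through the AT1 receptor (Agtr1a in mice), while the AT2 receptor (Agtr2) is prominent in the fetus and scarce in the adult heart. The apelin and angiotensin peptides are often described as acting against each other in the circulation.

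Sequence upstream of the start is shown for Apln and Agt, the members with the largest differences in each direction, and was taken from RefSeq on GRCm38.p6, where windows were found for 4 of the 6 genes (Apln, Agt, Ace and Agtr2). Each is the 250 bases before the start, printed 5′ to 3′ on the strand of the gene, with capitals for the letters TATAAA.
Apln, chrX:48034854-48035103, minus strand: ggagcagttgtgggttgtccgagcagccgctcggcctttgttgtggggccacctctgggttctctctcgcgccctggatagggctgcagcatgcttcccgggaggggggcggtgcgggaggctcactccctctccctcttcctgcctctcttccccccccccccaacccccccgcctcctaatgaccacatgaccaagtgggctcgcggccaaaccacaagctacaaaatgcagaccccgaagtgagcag
Agt, chr8:124569707-124569956, minus strand: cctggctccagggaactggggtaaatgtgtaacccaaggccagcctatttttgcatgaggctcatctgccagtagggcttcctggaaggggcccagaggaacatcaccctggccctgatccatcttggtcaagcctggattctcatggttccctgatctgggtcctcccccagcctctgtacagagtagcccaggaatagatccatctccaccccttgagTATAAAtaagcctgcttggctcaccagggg
The Agt window held TATAAA once on the strand of the gene, as did 7.59% of 32851 windows of this length, and the Apln window did not. The cores ACGTG and GCGTG, which hypoxia-inducible factors can bind, were sought on both strands and found in neither window, against 38.6% of all windows. The AP-1 letters TGANTCA, also sought on both strands, were found in neither window, against 6.75%. Their absence refers to these letters in these windows alone.

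In the I/R grafts Apln had a higher signal than in the non-I/R grafts, by 3.37-fold, while Agtr1a and Agt had lower signals, by 1.67-fold and 1.71-fold. Smaller differences were measured for Ace, Aplnr and Agtr2, with log2 fold changes of -0.37, -0.21 and -0.046. By limma at an unadjusted p under 0.05, 2 of the 6 members differed, Apln upward and Agtr1a downward, where 15.0% of all 21789 probe sets tested did so (7.64% higher and 7.35% lower). No member and no other probe set passed an adjusted p of 0.05 by limma, while the methods' t-test gave 2 probe sets at that level, none of them a member. The number of grafts limits the precision, since 3 against 2 can be split in 10 ways and an exact permutation test cannot give a two-sided p below 0.1.

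**Figure D1:**
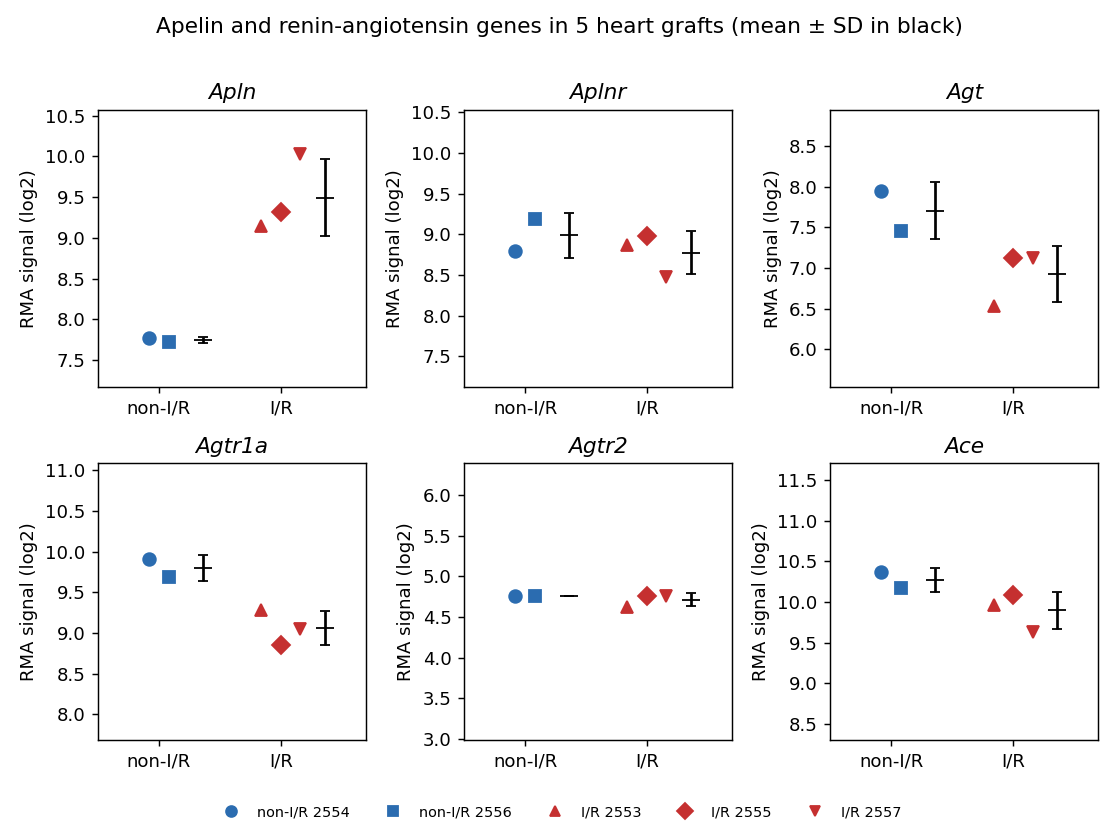
RMA signals (log2, y axis, the same span of values in every panel) of the 6 genes in each graft by group (x axis), with the 2 non-I/R grafts in blue, the 3 I/R grafts in red and the mean and SD of each group in black. The I/R grafts lie above both non-I/R grafts for Apln, below both for Agt, Agtr1a and Ace, and the groups overlap for Aplnr and Agtr2.

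The apelin ligand Apln was the member with the largest difference. Its log2 signal was 7.77 and 7.72 in the non-I/R grafts 2554 and 2556, and 9.15, 9.31 and 10.03 in I/R 2553, 2555 and 2557. The non-I/R grafts thus lay close together, and the lowest I/R graft was 1.38 above the higher of them. The mean was 9.50 ± 0.47 (SD, n = 3) in I/R and 7.74 ± 0.038 (SD, n = 2) in non-I/R grafts. The log2 fold change was 1.75 (SE 0.31, 95% interval 0.88 to 2.63, adjusted p = 0.282 from limma), and the exact permutation test gave a two-sided p of 0.1, the smallest it can give. Among all probe sets tested, 8 had a larger positive log2 fold change, and 0.496% were higher by at least 2-fold at an unadjusted p under 0.05. The study lists Apln at its 3-fold criterion on these arrays, so this direction is not independent evidence. With each graft left out in turn the log2 fold change lay between 1.49 and 1.93.

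The receptor gene Aplnr did not follow its ligand. Its log2 signal was 8.79 and 9.18 in the non-I/R grafts 2554 and 2556, and 8.87, 8.98 and 8.48 in I/R 2553, 2555 and 2557. The groups overlapped, and the lowest Aplnr signal was in I/R 2557, the graft with the highest Apln signal. The log2 fold change was -0.21 (SE 0.22, 95% interval -0.83 to 0.40, adjusted p = 0.616 from limma), and it was -0.41 without non-I/R 2554, -0.065 without I/R 2557 and -0.017 without non-I/R 2556. Within each array, the log2 ratio of Apln over Aplnr was -1.02 and -1.47 in the non-I/R grafts and 0.28, 0.33 and 1.55 in the I/R grafts. The ratio differed by 1.97 between the group means (exact permutation test, two-sided p = 0.1), with every I/R graft above both others. The Apln gap between the groups, 1.38, was larger than the range of Aplnr over the 5 grafts, 0.71. The separation of the ratio thus followed from Apln and is not further evidence.

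Both Agt and Agtr1a, the precursor and the main receptor of angiotensin II, had lower signals in every I/R graft than in either non-I/R graft. For Agt the log2 signal was 7.95 and 7.46 in the non-I/R grafts 2554 and 2556, and 6.54, 7.13 and 7.13 in I/R 2553, 2555 and 2557, the last 2 being the same value in the table. The lowest graft for Agt was I/R 2553, and the non-I/R grafts differed by more than the gap between the groups, which was 0.33. The log2 fold change of Agt was -0.77 (SE 0.28, 95% interval -1.56 to 0.018, adjusted p = 0.339 from limma), just short of the unadjusted threshold, and it lay between -1.02 and -0.52 with 1 graft left out. The threshold was passed with arrays centred on their medians, with quantile normalization, with cyclic loess and with a filter on dim probe sets.

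For Agtr1a the log2 signal was 9.92 and 9.69 in the non-I/R grafts 2554 and 2556, and 9.28, 8.85 and 9.05 in I/R 2553, 2555 and 2557. The gap between the groups was 0.41, and the lowest graft here was I/R 2555. The means were 9.06 ± 0.21 (SD, n = 3) and 9.80 ± 0.16 (SD, n = 2). Agtr1a had a log2 fold change of -0.74 (SE 0.16, 95% interval -1.19 to -0.29, adjusted p = 0.284 from limma). It was -0.63 without non-I/R 2554 and then no longer passed the unadjusted threshold, and with any other graft left out it passed. Its close paralog Agtr1b has no single-symbol probe set in the annotation used here, and whether the Agtr1a probe set also reads Agtr1b was not tested.

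The converting enzyme Ace had the smallest gap among the members whose groups did not overlap. Its log2 signal was 10.37 and 10.17 in the non-I/R grafts 2554 and 2556, and 9.96, 10.09 and 9.64 in I/R 2553, 2555 and 2557. Only 0.079 separated I/R 2555 from non-I/R 2556, less than the spread within either group. For Ace the log2 fold change was -0.37 (SE 0.17, 95% interval -0.85 to 0.10, adjusted p = 0.414 from limma), and with 1 graft left out it lay between -0.47 and -0.24, the latter without I/R 2557. In all, 4 of the 6 members had groups that did not overlap, 1 with all I/R grafts above and 3 with all below, against 31.9% of all probe sets tested (15.8% above and 16.2% below).

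The AT2 receptor gene Agtr2 showed almost no variation. The log2 signal was 4.76 in the non-I/R grafts 2554 and 2556 and in I/R 2555 and 2557, identical in the table, and 4.62 in I/R 2553. For Agtr2 the log2 fold change was -0.046 (95% interval -0.20 to 0.11), and without I/R 2553 the groups were equal. Its mean over the 5 grafts was at the 13.9th percentile of all probe sets tested, against the 50.4th for Agt and between the 73.6th and the 89.4th for Apln, Aplnr, Agtr1a and Ace. Probe sets differ in how brightly they bind, so these positions do not rank expression.

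**Figure D2:**
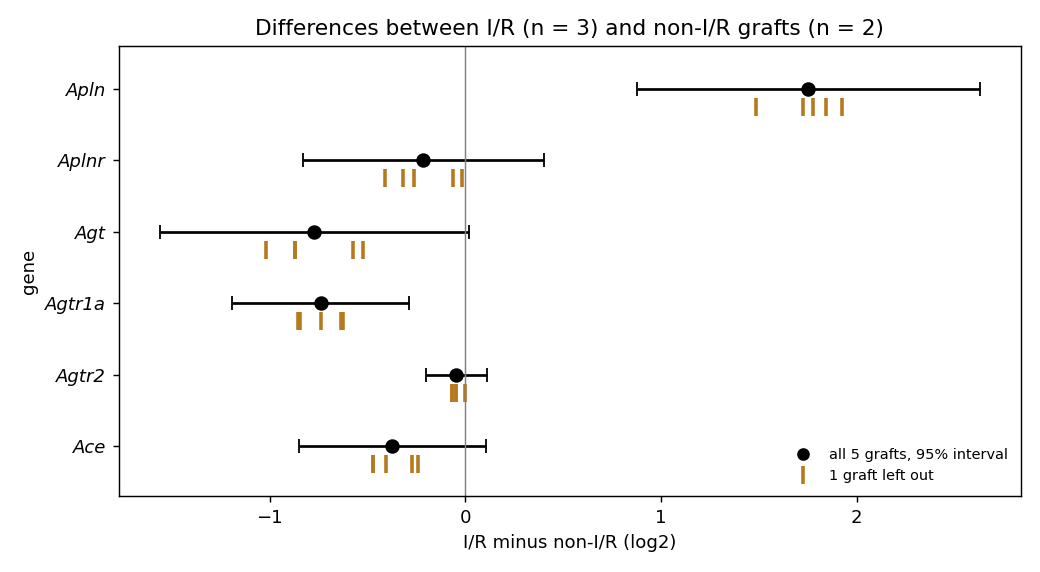
For each gene (y axis), the signal of the 3 I/R grafts minus that of the 2 non-I/R grafts (x axis, log2), with the mean difference and its 95% interval from limma in black and the 5 values with 1 graft left out as brown ticks. The intervals of Apln and Agtr1a lie to one side of 0, and that of Agt ends at 0.018.

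Other genes of the 2 systems were given by role. Of 41 such genes on 4 lists, 34 were measured. By limma at an unadjusted p under 0.05, 3 were higher, 3 were lower and 28 did not pass. Of all probe sets tested 15.0% passed this threshold, 7.64% higher and 7.35% lower, and the counts on the lists below stand beside the same shares. The median log2 fold change was -0.022, against -0.0079 over all probe sets tested. Among the peptidases that make or degrade these peptides, 1 of 16 was higher and 2 were lower. The 2 lower ones were Enpep, aminopeptidase A, which cuts angiotensin II to angiotensin III, and Mme, neprilysin, which degrades angiotensin I and natriuretic peptides. Enpep had log2 signals of 8.77 and 8.06 in the non-I/R grafts 2554 and 2556, against 7.55, 7.18 and 7.51 in I/R 2553, 2555 and 2557, with no overlap. Its log2 fold change was -0.996 (SE 0.27, adjusted p = 0.290 from limma) and was -0.64 without non-I/R 2554. For Mme the log2 fold change was -0.79 (SE 0.27, with an adjusted p of 0.324 from limma), and the I/R grafts were all below the non-I/R grafts. The higher one was Thop1, thimet oligopeptidase, which can cut angiotensin I, with 0.42 (SE 0.078), a difference of 1.34-fold.

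Renin itself (Ren1) is not listed as a single symbol in the annotation used here and has no value. The renin receptor gene Atp6ap2 differed by 0.21 (log2, SE 0.19), with overlapping groups. Apela, the other ligand of APJ, was at 3.95 on all 5 arrays, the same value in the table. Mas1, a receptor for angiotensin-(1-7), lay between 4.79 and 4.85 in all grafts, with a log2 fold change of 0.015 (SE 0.028). Of 12 measured ligands, receptors and partners, 2 were higher at the unadjusted threshold and none was lower. These were the G protein subunits Gnaq and Gna11, which couple the AT1 receptor to phospholipase C, with log2 fold changes of 0.19 (SE 0.027) and 0.080 (SE 0.025), or 1.14-fold and 1.06-fold.

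In the aldosterone arm, 1 of 5 genes was lower and none was higher. It was Nr3c2, the mineralocorticoid receptor, with log2 signals of 7.51 and 7.13 in the non-I/R grafts 2554 and 2556, against 6.72, 6.28 and 6.48 in I/R 2553, 2555 and 2557. The groups did not overlap, and I/R 2555 was the lowest graft, as for Agtr1a. For Nr3c2 the log2 fold change was -0.82 (SE 0.19, adjusted p = 0.286 from limma).

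**Figure D3:**
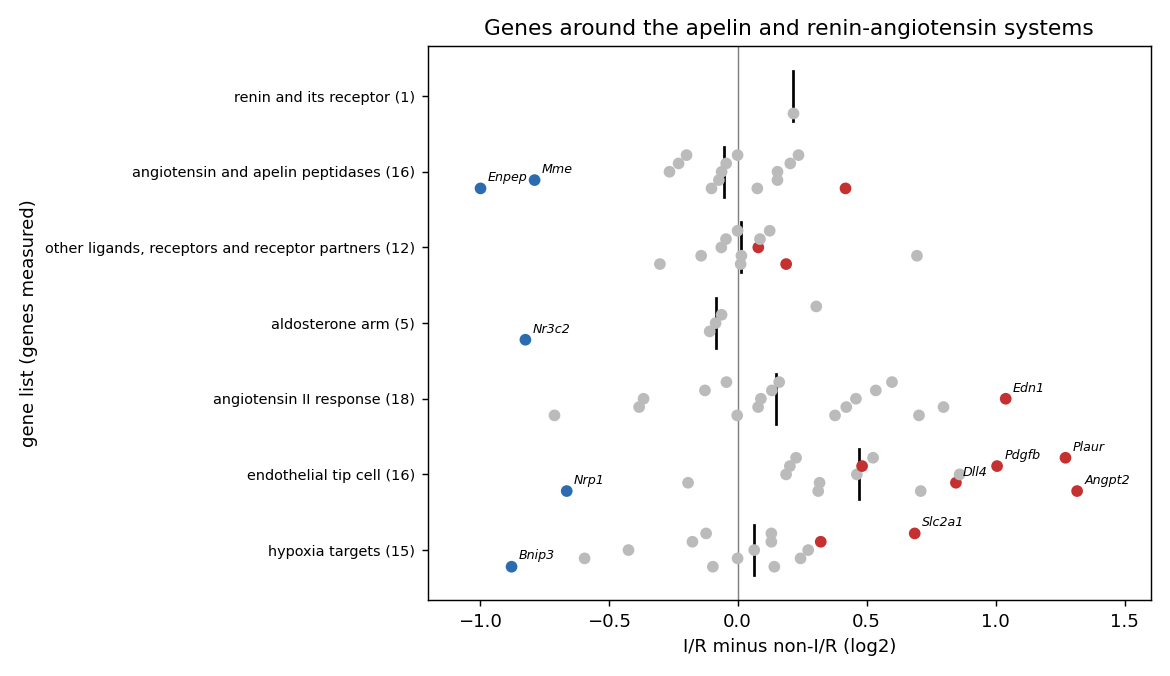
Log2 difference between I/R and non-I/R grafts (x axis) of each gene on 7 lists (y axis, with the number of genes measured), red for higher and blue for lower where limma gave an unadjusted p under 0.05, grey otherwise, with the median of each list as a black line. Names are given for genes past that threshold with at least a 1.5-fold difference, and the list of endothelial tip cell genes has the highest median, 0.47.

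Genes known to respond to angiotensin II through the AT1 receptor were set beside Agtr1a. Of 18 measured, 1 was higher at the unadjusted threshold and 17 did not pass, with a median of 0.15. The higher one was Edn1, endothelin-1, a vasoconstrictor made by endothelial cells, with log2 signals of 7.59 and 7.89 in the non-I/R grafts and 8.46, 8.88 and 9.002 in I/R 2553, 2555 and 2557. All I/R grafts were above both non-I/R grafts, and the log2 fold change was 1.04 (SE 0.21, adjusted p = 0.282 from limma). Ccn2, connective tissue growth factor, had 0.80 (SE 0.57), or -0.022 without non-I/R 2554 and 1.62 without non-I/R 2556, and the atrial natriuretic peptide gene Nppa -0.36 (SE 0.20). The lowest on the list was Myh7 with -0.71 (SE 0.25). On this list 5 genes, Edn1 included, had all I/R grafts above both non-I/R grafts and 2 had all below. Over all probe sets tested these shares were 15.8% and 16.2%. The count past the unadjusted threshold on this list was 1 to 4 over the alternatives tried.

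Apln is also known as a gene of endothelial tip cells, the leading cells of new vessel sprouts, and other genes of that kind were compared with it. Of 16 measured, 5 were higher and 1 was lower at the unadjusted threshold, against 7.64% and 7.35% of all probe sets tested. The other 10 did not pass, and the median was 0.47. The 5 were Angpt2, Plaur, Pdgfb, Dll4 and Esm1. Angpt2, which loosens vessels through the receptor Tek, differed by 1.32 on the log2 scale (SE 0.18). The urokinase receptor Plaur differed by 1.27 (SE 0.39) and the pericyte-recruiting ligand Pdgfb by 1.01 (SE 0.24). For the Notch ligand Dll4 the value was 0.85 (SE 0.13), and for Esm1, endocan, 0.48 (SE 0.12). In whole tissue, which cells gave the signals of these 5 genes was not tested. All I/R grafts lay above both non-I/R grafts for each of these 5, and for 15.8% of all probe sets tested. Because the 5 were picked by their p, this separation is not further evidence. The lower one was Nrp1, a coreceptor of VEGF, with -0.66 (SE 0.21). This count of 6 became 2 when non-I/R 2554 was left out, 3 when non-I/R 2556 was, and 4 when grafts 2554 and 2555 both were. General endothelial markers, taken for comparison, had a median of 0.11 over 14 genes. Of these 1 was higher, Erg with 0.37 (SE 0.091), and none was lower. They ran from -0.55 for Vwf to 0.62 for Egfl7. All I/R grafts lay above both non-I/R grafts for 4 of the 14 and below both for 1. The 4 were Robo4 with 0.59 (SE 0.27), Cldn5 with 0.43 (SE 0.22), Erg, and Emcn with 0.13 (SE 0.072). The 1 was Tek with -0.33 (SE 0.12). Cdh5, a junction protein of endothelial cells, and Pecam1 had 0.13 (SE 0.20) and 0.12 (SE 0.15). Whether Apln differs from these markers more than genes do in general was not tested.

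**Figure D4:**
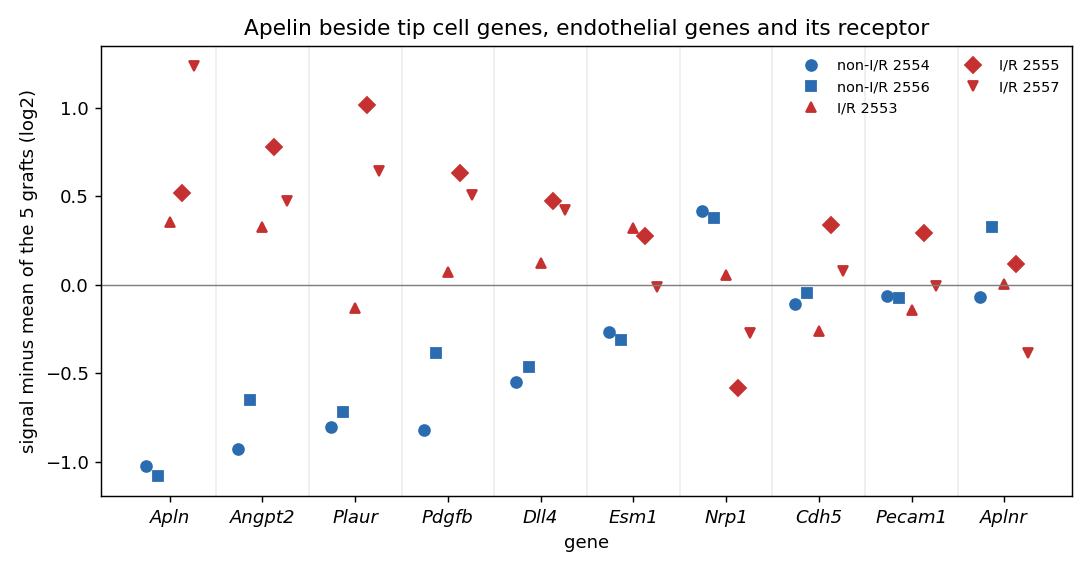
Log2 signal of each graft minus the mean of the 5 grafts (y axis) for Apln, the 6 tip cell genes past the unadjusted threshold, the endothelial genes Cdh5 and Pecam1, and Aplnr (x axis), blue for non-I/R and red for I/R. For Apln, Angpt2, Plaur, Pdgfb, Dll4 and Esm1 every I/R graft lies above both non-I/R grafts, for Nrp1 below both, and for Cdh5, Pecam1 and Aplnr the groups overlap. Cdh5 and Pecam1 do not stand for all 14 endothelial markers, whose log2 fold changes ran from -0.55 to 0.62.

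Known targets of hypoxia, which also induces Apln, were mixed. Of 15 measured, 2 were higher, 1 was lower and 12 did not pass, with a median of 0.064. For the glucose transporter Slc2a1 the log2 fold change was 0.69 (SE 0.17), for Ankrd37 0.32 (SE 0.099), and for the mitophagy receptor Bnip3 -0.88 (SE 0.29), or -0.60 without non-I/R 2554. A second probe set of Bnip3 gave -0.60 (SE 0.27) and did not pass. Vegfa, the main ligand of vessel growth under hypoxia, had -0.17 (SE 0.20, 95% interval -0.74 to 0.39), with overlapping groups. With non-I/R 2554 or I/R 2555 left out, no gene of this list passed the unadjusted threshold.

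The probe sets of other genes nearest in pattern were found by the root mean square difference of log2 signals centred over the 5 grafts, for the members whose signal spanned at least 1 log2 unit. Nearest to Apln were Ttc9 (0.27), the lysyl oxidase Loxl4 (0.27) and the decoy receptor Tnfrsf23 (0.29), with log2 fold changes of 1.23, 1.89 and 1.71, and no probe set came within 0.25 of it. For Agtr1a the nearest were Pcmtd1 (0.017), the matrix protein Hmcn1 (0.022) and the hydroxylase Asph (0.037), and 1787 probe sets came within 0.25. For Agt they were Asb4 (0.13), the muscle fructose bisphosphatase Fbp2 (0.15) and Grip2 (0.16), with 91 within 0.25. With 5 grafts, many probe sets share a pattern such as that of Agtr1a, and the order of these neighbours is a description only.

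In whole tissue, fewer cells of a type and less RNA per cell cannot be told apart, so marker lists were set beside the members. Of 10 cardiomyocyte markers 9 were lower at the unadjusted threshold and none was higher, with list means of 13.17 and 13.01 in the non-I/R grafts 2554 and 2556, against 12.42, 12.33 and 12.66 in I/R 2553, 2555 and 2557, and a median log2 fold change of -0.52, beside -0.77 for Agt and -0.74 for Agtr1a. Over 9 markers of pericytes and smooth muscle the list means overlapped (9.20 and 9.38 against 9.16 to 9.28), but its members differed in sign. Abcc9, Rgs5 and Kcnj8, listed for pericytes, were below both non-I/R grafts in every I/R graft. Their log2 fold changes were -1.05 (SE 0.24), -0.75 (SE 0.31) and -0.66 (SE 0.33). The smooth muscle genes Acta2 and Cnn1 were above both non-I/R grafts in every I/R graft, with 0.75 (SE 0.26) and 0.60 (SE 0.23). Of these 5, Abcc9 passed the unadjusted threshold. Whether the signals of Abcc9, Rgs5 and Kcnj8 came from pericytes or from other cells was not tested. The groups overlapped for the pericyte genes Pdgfrb and Cspg4, with -0.058 and -0.13. They also overlapped for the smooth muscle genes Myh11 and Tagln, with 0.082 and 0.50. Fibroblast markers had list means of 10.20 and 9.72 against 9.51 to 9.81, with 1 of 8 lower, and neutrophil markers 8.44 and 8.61 against 9.001 to 9.67, with 5 of 9 higher. The part of these cells in the signals of Agt, Agtr1a and Apln was not tested. Endothelial markers, of the cells that make most apelin, had list means of 9.72 and 9.66 against 9.69, 9.95 and 9.76 in I/R 2553, 2555 and 2557, with overlap. Fat cells also make Apln and Agt. Of 8 of their markers 1 was lower, Cidea (log2 fold change -1.12), and the list means were 6.79 and 6.78 against 6.57 to 6.61. The defining markers Adipoq and Plin1 lay between 4.44 and 4.51 and between 6.09 and 6.32 in all grafts, with log2 fold changes of -0.012 and -0.025. Adipoq was at the 10.9th percentile of mean signal, where a change may not show. Fabp4, the brightest of the 8, was lower in every I/R graft than in either non-I/R graft, with -0.22 (SE 0.093). Whether the Fabp4 signal came from fat cells or from other cells was not tested. Retn was higher in every I/R graft, with 0.13 (SE 0.088).

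Signals of atrial markers differed between grafts of the same group. The atrial myosin light chain Myl7 had log2 signals of 10.67 and 5.52 in the non-I/R grafts 2554 and 2556, against 6.72, 11.08 and 8.56 in I/R 2553, 2555 and 2557. Apln differed by 0.053 between those non-I/R grafts, and Agt and Agtr1a by 0.50 and 0.23, with the higher signals in non-I/R 2554. Grafts 2554 and 2555 had the highest means of the atrial list, 9.71 and 9.02. Myl7, Myl4, Sln and Dkk3 were highest in these grafts, but not every atrial marker was high in I/R 2555. Bmp10 was at 4.79 there and at 7.29 in non-I/R 2554. Nppa was at 12.56 in I/R 2555 and at 12.61 in non-I/R 2556. Without grafts 2554 and 2555 the log2 fold changes were 1.87 for Apln, -0.62 for Agt and -0.52 for Agtr1a. These came from 2 I/R grafts against 1 non-I/R graft.

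**Figure D5:**
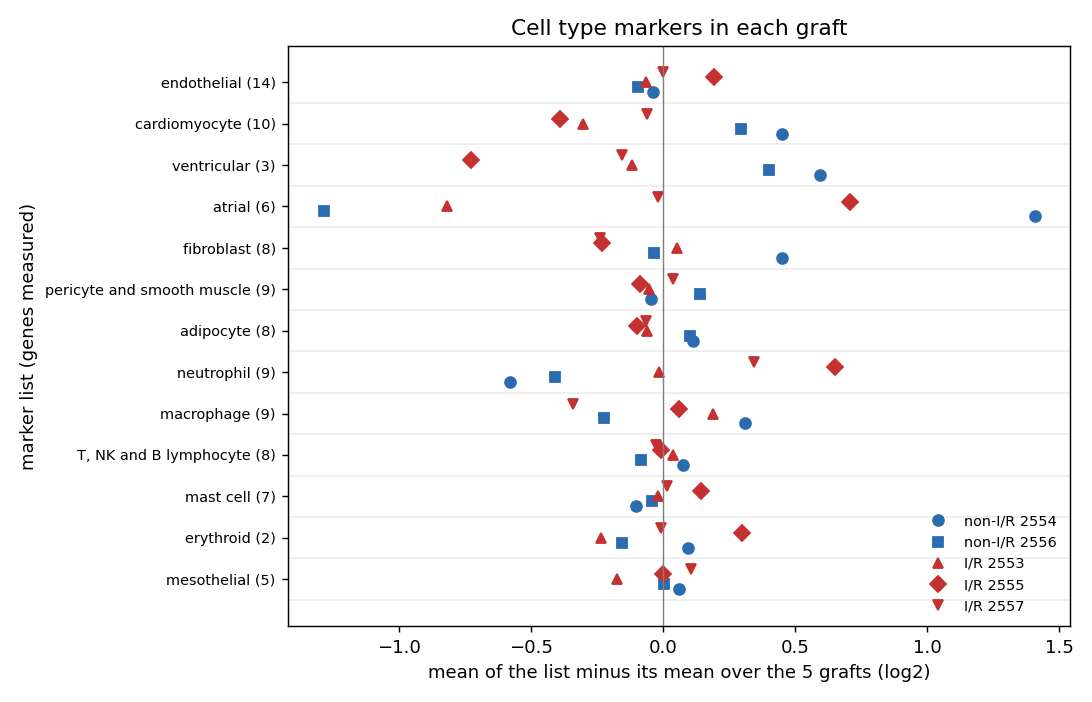
Mean log2 signal of each cell type marker list minus its mean over the 5 grafts (x axis), for 13 lists (y axis, with the number of genes measured), blue for non-I/R and red for I/R grafts. Cardiomyocyte lists are lower and neutrophil lists higher in every I/R graft, while the atrial list separates non-I/R 2554 from non-I/R 2556.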

How the data were processed

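Heart grafts were profiled on Affymetrix Mouse Gene 1.0 ST arrays. Values on the log2 scale, made by the authors with Partek and RMA, were deposited as 1 table of 35556 probe sets (versions and genome build not given in the sources used here). RMA subtracts background, matches the distributions of the arrays and combines probes into sets, so a shift common to most genes could be lost. Array medians lay between 6.58 and 6.65. Those to which the platform annotation gives 1 symbol (21789) were kept, and symbols were updated by gene ID through a GRCm38.p6 table (21698 found). Another 1621 had several symbols and 12146 were not listed. Values were tied between arrays in 11715 of the 21789, of which 757 had 1 value on all 5 arrays. These values went unfiltered into lmFit and eBayes (limma 3.58.1, R 4.3.3, prior df 0.824), with Benjamini-Hochberg adjustment over all 21789. A list gene was represented by its brightest probe set on average. Exact permutation tests were two-sided over grafts. The limma fit and the t-test, but not the other steps, were tested on simulated normal values without ties. Plots were drawn with matplotlib 3.10.9.

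Members, gene lists and tests were chosen with earlier results of these data known. Named genes were all members, the list genes at an unadjusted p under 0.05 with a 1.5-fold difference, Ren1, Agtr1b, Mas1 and Apela, and the 3 probe sets nearest in pattern to Apln and to other members with a range of at least 1 log2 unit. Others were named after their values were seen, to describe a list. A planned gene ratio, and a gene of the naming rule, are not reported here. Alternatives were other eBayes settings, array weights, the methods' t-test, other normalizations, filters, other sets of probe sets in the fit and leaving out each array. Leaving out grafts 2554 and 2555 together was added after the data had been seen.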

Additional observations from a re-analysis of the deposited data

How the results depend on the processing

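Of the 17 alternatives for Apln, 16 kept it higher and past an unadjusted p of 0.05 by limma or the methods' t-test. The exception was the fit without grafts 2554 and 2555, at 1.87 (adjusted p = 0.586 from limma; the lowest under any alternative was 0.0776). Apln lay, with 1 graft left out, between 1.49 and 1.93 and its ratio to Aplnr between 1.55 and 2.19. Agtr1a was lower under all 17, from -0.85 to -0.52, and passed under 15. Agt was lower under all 16 that could be run and passed under 4. No alternative brought Aplnr, Ace or Agtr2 past the threshold. The fit without tied probe sets gave no value for Agt and Agtr2, nor did the filter on dim probe sets for Agtr2. The count of members past the threshold was 1 to 2 with 1 graft left out (1 without non-I/R 2554), 3 under the 4 alternatives that Agt passed, and 0 without grafts 2554 and 2555.

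The count among the other genes of the 2 systems, 6, was 3 to 8 with 1 graft left out, with 3 without I/R 2557. Among genes of the angiotensin II response, 1 in the fit reported, it was 2 with eBayes trend, with all probe sets of the table and without grafts 2554 and 2555, 3 with array weights, quantile normalization, cyclic loess and the filter on dim probe sets, 4 with arrays centred on their medians and without tied probe sets, and 1 to 3 with 1 graft left out. Tip cell genes numbered 2 to 6 with 1 graft left out. Hypoxia targets numbered 1 with the methods' t-test and 0 to 2 with 1 graft left out. The cause of these shifts was not tested. Where 1 non-I/R graft remained, it was assumed to vary like the I/R grafts. No paired analysis was possible because the labels give the grafts no replicate numbers or pairs, and the replicate numbers used to leave out arrays only follow the order of the samples. Signal over background could not be assessed, since the table holds no detection values.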
